A study of Mus musculus with 8 samples.

Results

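Aerocytes are the endothelial cells of the alveolar capillary that are specialised for gas exchange, and 9 genes known to mark them in the mouse lung were followed here, out of 31610 genes counted, namely Car4, Tbx2, Fibin, Prx, Kitl, Chst1, Emp2, Igfbp7 and Cyp4b1. The genes were taken by symbol from prior knowledge of this cell type, and all 9 were found and passed the filter on low counts. RNA was sequenced from endothelial cells sorted by flow cytometry from lungs of C57BL/6J mice, with 4 libraries from mice given an nANGPTL4 AAV and 4 from mice given a control AAV. AAV is adeno-associated virus, a carrier used to deliver a gene. ANGPTL4 is secreted and inhibits the enzyme lipoprotein lipase, and the labels do not spell out the prefix n. The series design text calls the 4 libraries of each condition independent biological replicates. The nANGPTL4 AAV libraries are titled NT Treated, so their group rests on the treatment label. The labels used here give no age, sex, dose, time of treatment, sort markers or promoter of the vector.

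The alveolar capillary is a mosaic of aerocytes and general capillary cells. Aerocytes are large, thin cells that lie against the alveolar epithelium, and they depend on VEGFA signalling from that epithelium. General capillary cells renew the capillary after injury and can give rise to aerocytes. Both are endothelial, so a sorted endothelial library mixes their RNA with that of arterial, venous and lymphatic cells. In such bulk libraries, fewer cells of a type and less RNA per cell cannot be told apart.

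Total counts ranged from 83183122 to 114337333 per library. The 12 pan-endothelial markers, such as Pecam1 and Cdh5, summed to 19598 to 20515 CPM (counts scaled to a common library size by TMM) in nANGPTL4 AAV and 20305 to 21045 CPM in control AAV. The 14 fibroblast and mural markers summed to 65.0 to 155 CPM in nANGPTL4 AAV and 52.0 to 122 CPM in control AAV, and the 8 alveolar type 2 markers to 254 to 400.4 CPM in nANGPTL4 AAV and 188 to 349 CPM in control AAV. No marker of these lists was at 0 in every library. Mitochondrial genes took 0.178 to 0.202% of counts in nANGPTL4 AAV and 0.19 to 0.22% in control AAV.

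RefSeq promoters of GRCm38.p6, reaching from 250 bases before to 50 bases after a start site, were found for 8 of the 9 genes. Those of Car4, the gene most used to define aerocytes, and of Kitl, which had the smallest p of the 9, are shown. Both are written 5′ to 3′ on the plus strand, Car4 from chr11:84957504-84957803 and Kitl from chr10:100015571-100015870, and capitals mark the letters TATAAA.
Car4: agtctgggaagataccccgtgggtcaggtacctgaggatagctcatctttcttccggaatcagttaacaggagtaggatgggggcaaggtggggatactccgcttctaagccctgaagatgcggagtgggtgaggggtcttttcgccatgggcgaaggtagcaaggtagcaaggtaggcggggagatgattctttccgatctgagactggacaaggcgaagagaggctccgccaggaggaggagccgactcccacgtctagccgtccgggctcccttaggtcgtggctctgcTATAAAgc
Kitl: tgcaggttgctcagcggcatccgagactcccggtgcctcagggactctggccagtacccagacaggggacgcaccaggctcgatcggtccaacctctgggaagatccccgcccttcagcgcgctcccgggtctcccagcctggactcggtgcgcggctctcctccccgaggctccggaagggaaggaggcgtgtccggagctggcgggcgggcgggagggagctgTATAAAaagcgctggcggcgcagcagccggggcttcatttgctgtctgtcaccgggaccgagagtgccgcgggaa
The Kitl match began 25 bases before the start site and the Car4 match 42 bases after it. TATAAA was searched on both strands and occurred in 2 of the 8 promoters, against 13.6% of all 32851 promoters of this length. The ETS factor letters AGGAAG occurred in 1 of 8, Chst1, against 35.4% of all promoters, and the T-box letters GGTGTGA in 0 of 8, against 3.98%. The GC content of the 8 promoters ran from 52.7% for Chst1 to 73.3% for Igfbp7, where the median over all promoters was 52.7%. These matches are descriptions of the letters and say nothing of binding.

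All 9 genes were abundant. Each had a higher mean CPM than at least 95.5% of the 18874 genes tested, which was the value for Chst1, and Cyp4b1 exceeded 99.9% of them. Together they took 1.09% of the scaled counts in nANGPTL4 AAV and 1.05% in control AAV, with sums of 10900.3 ± 931 CPM and 10509 ± 358 CPM (SD, n = 4 each). Levels can be compared between genes only per length, so CPM was divided by the kilobases of exon of each gene. Igfbp7, a secreted protein that binds CD93 and insulin-like growth factors, came first at 1426 ± 99.2 CPM per kb in nANGPTL4 AAV and 1314 ± 50.5 CPM per kb in control AAV. Cyp4b1, a cytochrome P450 of the lung, followed at 1299 ± 115 CPM per kb in nANGPTL4 AAV and 1308 ± 51.7 CPM per kb in control AAV. The ranges of these 2 genes over the 8 libraries overlapped, so their order is not settled.

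Car4, a carbonic anhydrase anchored to the luminal surface that speeds the conversion of bicarbonate to CO2, was next at 564 ± 56.7 CPM per kb in nANGPTL4 AAV and 527 ± 16.1 CPM per kb in control AAV. Prx, a scaffold protein best known from myelinating Schwann cells, followed Car4 at 335 ± 16.9 CPM per kb in nANGPTL4 AAV and 332 ± 10.04 CPM per kb in control AAV. Both places were the same in all 8 libraries. Averaged over all 8 libraries, Emp2 (200.1 CPM per kb), Tbx2 (178 CPM per kb) and Fibin (120.1 CPM per kb) came next. The range of Tbx2 overlapped those of Emp2 and Fibin. Chst1 (80.6 CPM per kb) and Kitl (52.6 CPM per kb) were lowest in all 8 libraries. The level of Igfbp7 per kb was 26.0 times that of Kitl.

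**Figure D1:**
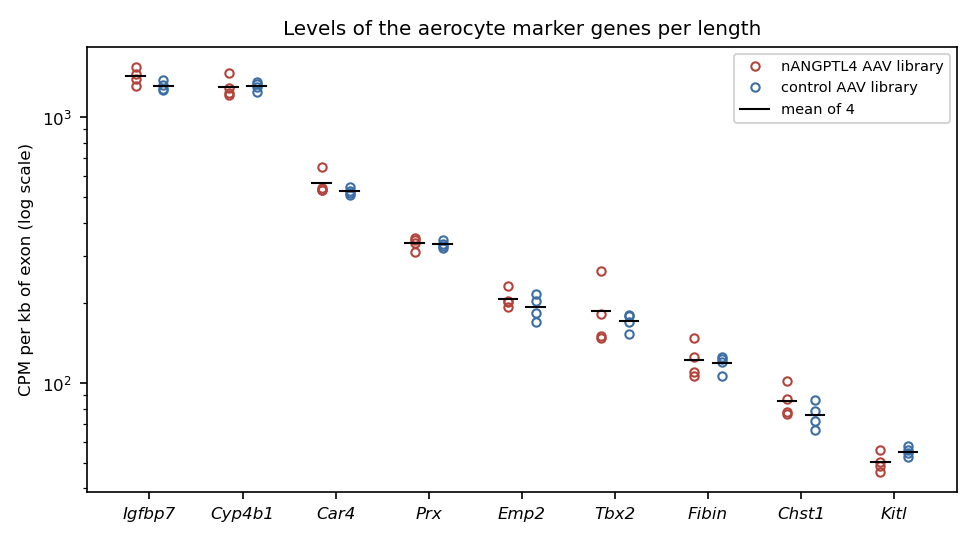
Level of each aerocyte marker gene per kilobase of exon (CPM per kb, log axis) in each library, with nANGPTL4 AAV left of control AAV and a line at the mean of 4. The genes span from Igfbp7 at 1426 and 1314 CPM per kb to Kitl at 50.2 and 55.1 CPM per kb in nANGPTL4 AAV and control AAV, and the difference between groups is small beside the difference between genes.

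None of the 9 aerocyte genes passed the test between nANGPTL4 AAV and control AAV, and 1 nANGPTL4 AAV library, library 3, had the highest level of all 9 in its group. At an adjusted p under 0.05 (edgeR, quasi-likelihood, adjusted over 18874 genes by Benjamini and Hochberg), 0 of the 9 were called. The same threshold called 0.138% of all genes tested, 0.0477% as higher and 0.0901% as lower. DESeq2 and limma-voom also called 0 of the 9. Over all genes they called 985 of 15654 and 21 of 18874. At an unadjusted p under 0.05 there was 1 gene, Kitl, with a lower mean in nANGPTL4 AAV. Of all genes, 17.6% were under that level, 7.35% with a higher and 10.3% with a lower value. The 2 groups overlapped for all 9 genes, while they did not overlap for 10.9% of all genes, 3.89% being higher and 6.99% lower. Log2 fold changes (nANGPTL4 AAV minus control AAV) were positive for 7 and negative for 2, with a median of 0.10, beside a median of 0.01 over all genes tested and of -0.03 over genes with an average log2 CPM from edgeR over 3. Positive values made up 52.2% of all genes tested and 37.5% of the genes over that level.

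Car4, the surface carbonic anhydrase, had 1048, 1061, 1275 and 1048 CPM in nANGPTL4 AAV libraries 1 to 4 and 1039.6, 1005, 1021 and 1078 CPM in control AAV libraries 1 to 4. Library 3 of nANGPTL4 AAV stood above the other 7, which lay close together, and the groups overlapped. The log2 fold change of Car4 was 0.10 (SE 0.07, edgeR adjusted p = 0.483), a fold of 1.07 with a 95% interval of 0.966 to 1.18. Tbx2, a T-box transcription factor that mostly represses its targets, had 533, 546, 958 and 658 CPM in nANGPTL4 AAV and 617, 646, 552 and 654 CPM in control AAV. Here library 3 of nANGPTL4 AAV was 1.66 times the mean of the other 3 of its group, the highest such ratio of the 9 genes. The log2 fold change of Tbx2 was 0.13 (SE 0.16, edgeR adjusted p = 0.724), and its 95% interval for the fold, 0.856 to 1.39, was the widest of the 9. Without library 3 the log2 fold change was -0.08.

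Kitl encodes stem cell factor, the ligand of the receptor KIT, which general capillary cells carry. It had 296, 272, 330.3 and 288 CPM in nANGPTL4 AAV and 340.3, 322, 309 and 330.4 CPM in control AAV. Libraries 1, 2 and 4 of nANGPTL4 AAV lay below every control AAV library, and library 3 lay among the controls. The log2 fold change was -0.13 (SE 0.06, unadjusted p = 0.0497, edgeR adjusted p = 0.283), a fold of 0.911 with a 95% interval of 0.830 to 0.9998. Without nANGPTL4 AAV library 3 it was -0.18 (edgeR adjusted p = 0.149). Kit had a log2 fold change of -0.11 (edgeR adjusted p = 0.513), and the ratio of Kitl to Kit in CPM was 0.240 ± 0.0403 in nANGPTL4 AAV and 0.241 ± 0.0103 in control AAV (SD, n = 4 each).

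Igfbp7 had 1689.99, 1760.4, 1866 and 1581 CPM in nANGPTL4 AAV and 1548, 1602, 1536 and 1669.6 CPM in control AAV. Its nANGPTL4 AAV values in libraries 1, 2 and 3 lay above every control AAV value, and library 4 lay among the controls. The log2 fold change was 0.12 (SE 0.06, edgeR adjusted p = 0.314), a fold of 1.09 with a 95% interval of 0.994 to 1.18. Fibin, a secreted protein whose role is known from the fin bud of zebrafish, had 249, 239.7, 334 and 282 CPM in nANGPTL4 AAV and 284, 240.1, 278 and 271 CPM in control AAV. Its library 3 was highest and the other 7 lay between 239.7 and 284 CPM. Between groups Fibin differed by 0.04 on the log2 scale (SE 0.10, edgeR adjusted p = 0.861), which was -0.05 without that library.

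Chst1, which adds sulfate to galactose of keratan sulfate and other glycans, had 208, 234, 271 and 204 CPM in nANGPTL4 AAV and 209.7, 178, 193 and 230.1 CPM in control AAV. The log2 fold change was 0.18 (SE 0.10, edgeR adjusted p = 0.376), the largest of the 9, with a fold of 1.13 and a 95% interval of 0.973 to 1.32. It was 0.10 without library 3 of nANGPTL4 AAV. Cyp4b1 had 2733, 2908, 3302 and 2776 CPM in nANGPTL4 AAV and 3072, 2799.9, 2929 and 3003 CPM in control AAV. Its library 3 was again the highest of the 8. The log2 fold change was -0.01 (SE 0.06, edgeR adjusted p = 0.951), with a 95% interval of 0.8998 to 1.10 for the fold, and it was 0.03 when scaled by the upper quartile or by library size.

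Emp2, a membrane protein with 4 transmembrane spans, had 1667, 1758, 2001 and 1742 CPM in nANGPTL4 AAV and 1762, 1463, 1577 and 1866 CPM in control AAV. The control AAV libraries themselves spread widely, with an SD of 181 CPM, and the log2 fold change was 0.10 (SE 0.08, edgeR adjusted p = 0.551). Prx had 1918, 1739, 1955 and 1868 CPM in nANGPTL4 AAV and 1799, 1866, 1926 and 1820.2 CPM in control AAV. Its log2 fold change, 0.01 (SE 0.05, edgeR adjusted p = 0.918), had the smallest SE of the 9, and the 95% interval of the fold ran between 0.935 and 1.09. The 95% intervals of all 9 folds lay between 0.830 and 1.39.

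**Figure D2:**
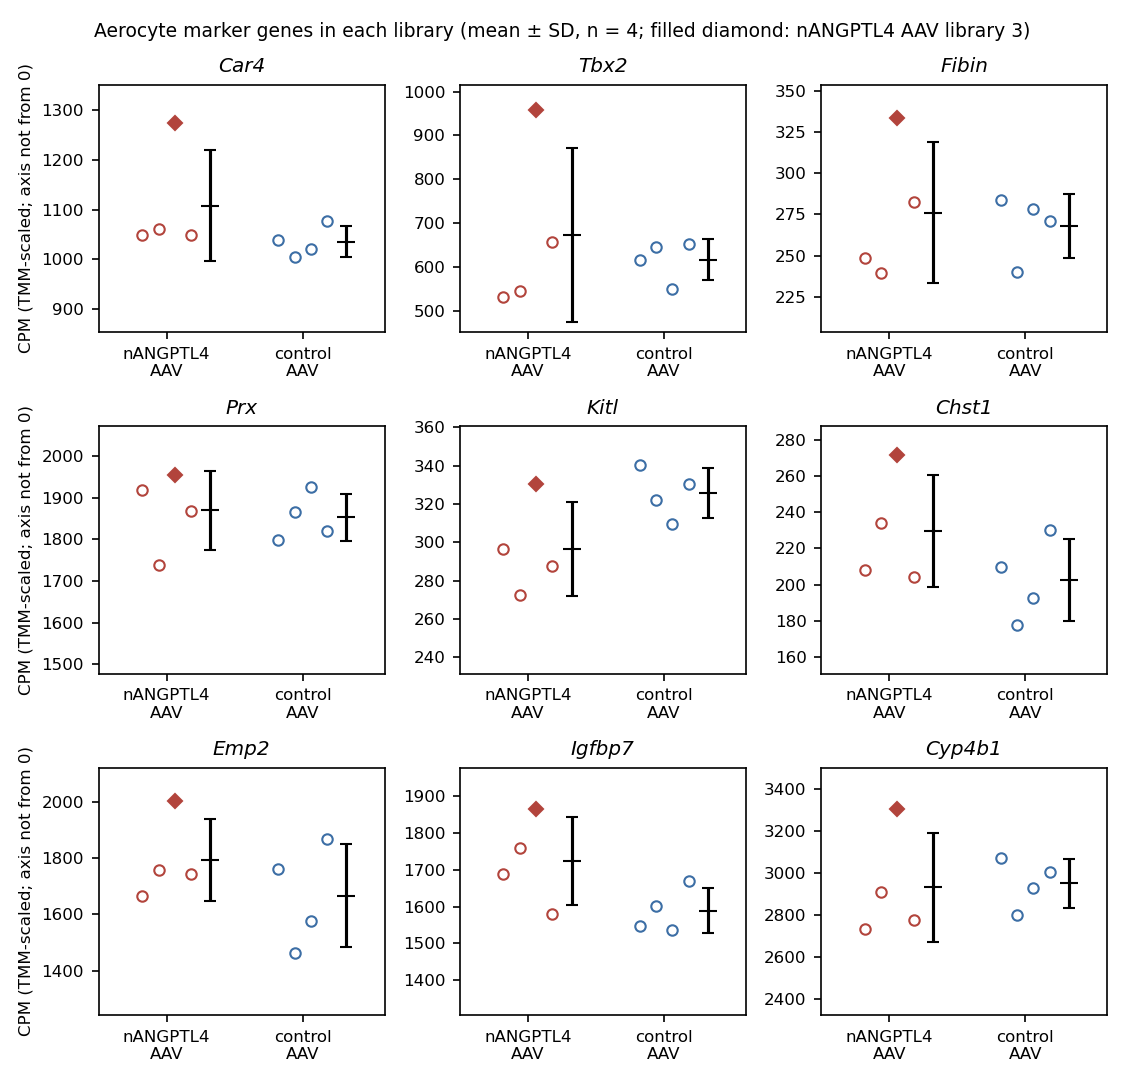
CPM of each aerocyte marker gene in the 4 nANGPTL4 AAV and 4 control AAV libraries, in library order within a group, with the mean and SD at the right of each group; the axes do not start at 0. The filled diamond is nANGPTL4 AAV library 3, which is the highest of its group in all 9 panels (for example 1275 CPM of Car4 and 958 CPM of Tbx2).

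**Figure D3:**
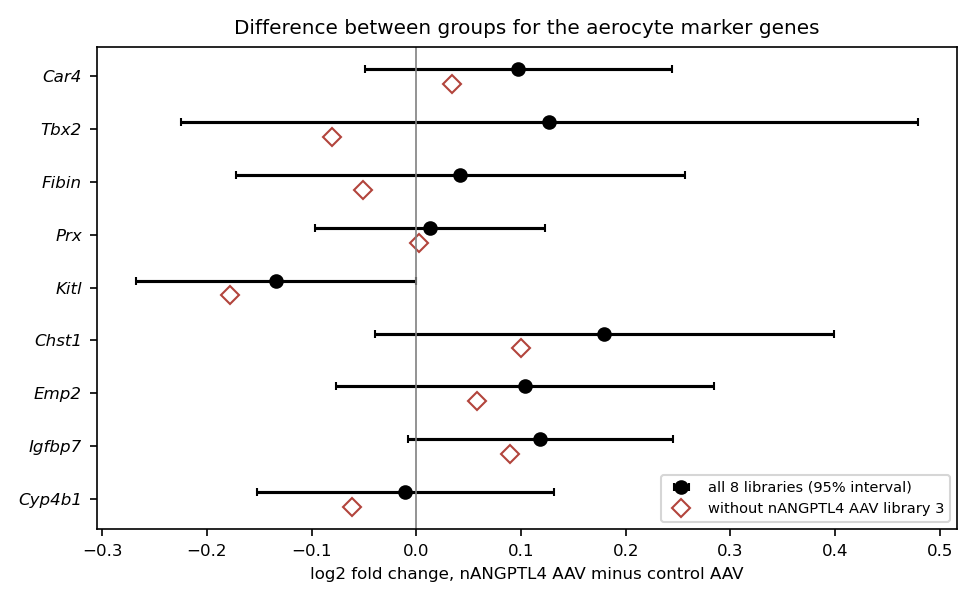
Log2 fold change of each aerocyte marker gene (nANGPTL4 AAV minus control AAV) with its 95% interval over all 8 libraries, and the value without nANGPTL4 AAV library 3 as a diamond. That library is the highest of its group for all 9 genes, so lower values without it were set in advance. They reach -0.08 for Tbx2 and -0.05 for Fibin. The interval of Kitl over all 8 libraries ends just below 0.

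Library 3 of nANGPTL4 AAV was the highest of all 8 libraries for 8 of the 9 genes, the exception being Kitl, and the highest of its own group for all 9. Among all genes tested, that library was the highest of the 8 for 10.9% and the highest of its group for 24.4%. The ratio of library 3 to the mean of the other 3 nANGPTL4 AAV libraries ran from 1.061 for Prx to 1.66 for Tbx2, with a median of 1.18, where the median over all genes tested was 0.999. The sum of the 9 genes was 12293 CPM in library 3, against 10342 to 10517 CPM in the other 3 nANGPTL4 AAV libraries. The control AAV libraries lay between 10122 and 10923 CPM. Without library 3, the median log2 fold change of the 9 genes was 0.0028, with 5 positive and 4 negative. Library 3 was singled out after its values were seen, and leaving out the highest library of a group lowers the mean of that group.

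A list of 12 other genes reported in aerocytes or enriched in them, among them Ednrb, the endothelin B receptor, and Apln, the ligand apelin, holds none of the 9. Library 3 was the highest of its group for 11 of the 12 and the highest of all 8 for 6. Ednrb had 665, 683, 899.9 and 739 CPM in nANGPTL4 AAV libraries 1 to 4 and 814, 663, 658 and 833 CPM in control AAV libraries 1 to 4, so that library 3 was highest and the groups overlapped. In control AAV, library 4 was the highest of its group for 11 of the 12 genes and for 5 of the 9. Among all genes tested, that library was the highest of its group for 21.1%. Apln had 273, 293, 315 and 278 CPM in nANGPTL4 AAV and 275, 247, 269 and 323 CPM in control AAV. Its highest value was thus in control AAV library 4.

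None of these 12 genes was called over all genes with edgeR or DESeq2, with 8 positive, 4 negative and a median log2 fold change of 0.06. At an unadjusted p under 0.05 there was 1 higher, the cell cycle inhibitor Cdkn2b at 0.26 (edgeR adjusted p = 0.257), and 1 lower, the T-box factor Tbx3 at -0.16 (edgeR adjusted p = 0.227). The membrane protein Tmeff2 was at 0.11 (edgeR adjusted p = 0.309). Without nANGPTL4 AAV library 3 the median of this list was 0.01, with 6 positive and 6 negative, and it was 0.03 without control AAV library 2 or 3 and 0.11 without control AAV library 4. Tbx3 is the closest relative of Tbx2 and was more abundant in CPM per kb, at 216 against 178 averaged over all libraries.

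The general capillary markers did not share the high values of library 3. Of 15, library 3 was the highest of its group for 2 and the lowest for 9, and the median ratio to the other 3 nANGPTL4 AAV libraries was 0.930. Among all genes tested, library 3 was the lowest of its group for 22.9%. The 12 pan-endothelial markers had a median ratio of 1.002 with 6 of 12 above 1. The 7 lymphatic markers had a median ratio of 1.11, with 5 above 1. For markers of other cell types the median ratio was 0.968 for 11 alveolar type 1 markers, 0.614 for 8 alveolar type 2 markers, 0.934 for 8 airway markers and 0.698 for 14 fibroblast and mural markers. The median ratio was 0.996 for 6 myeloid, 0.731 for 4 lymphocyte, 0.582 for 9 erythroid and platelet and 1.016 for 4 Schwann and nerve markers. Library 3 had 108921765 counts, within the range of the others, and 0.178% mitochondrial counts, the lowest share of all libraries.

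**Figure D4:**
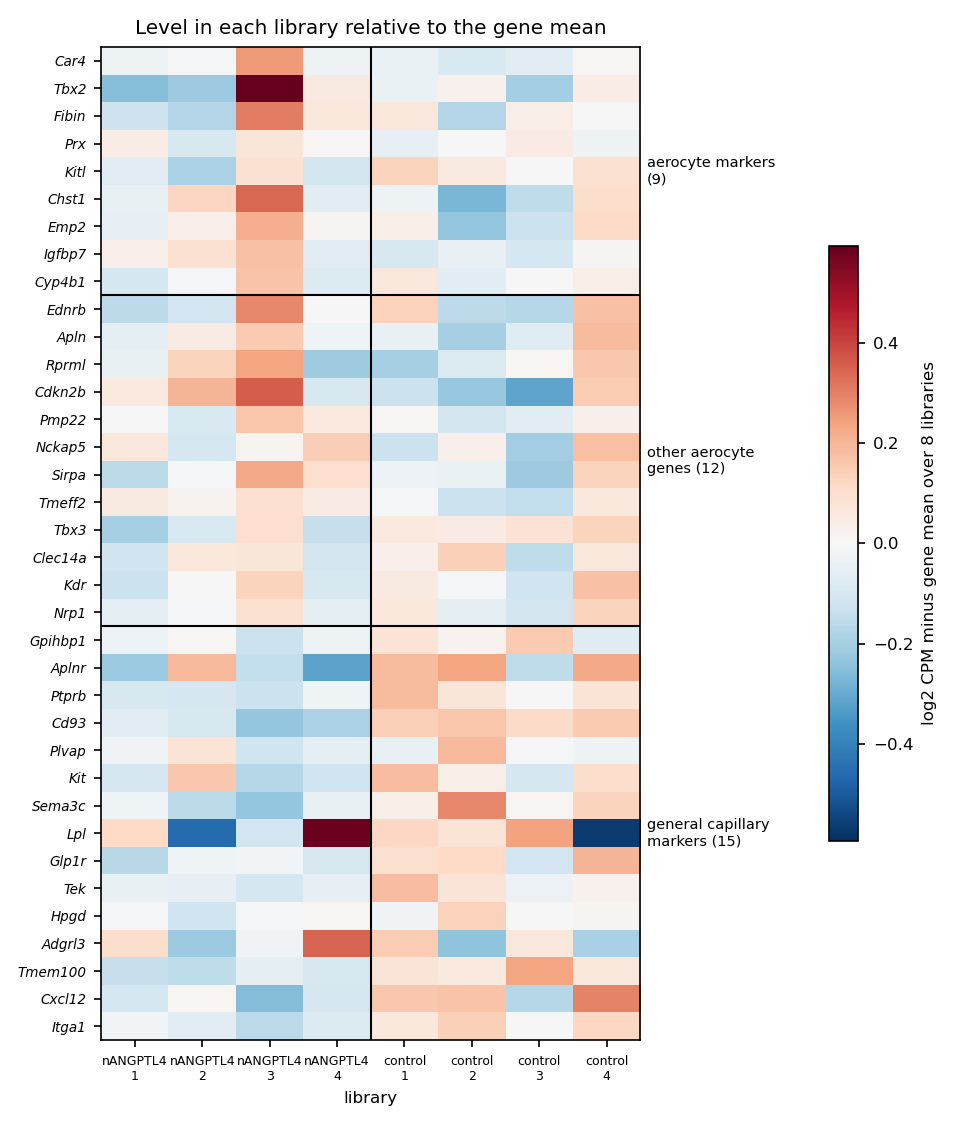
Log2 CPM of 9 aerocyte markers, 12 other aerocyte genes and 15 general capillary markers in each library, relative to the gene's mean over the 8 libraries, with nANGPTL4 AAV libraries left of control AAV libraries. The column of nANGPTL4 AAV library 3 is above the mean for all 9 aerocyte markers. Library 3 is the lowest of its group for 9 of the 15 general capillary markers, against 22.9% of all genes tested.

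Between groups, 13 of the 15 general capillary markers had a negative log2 fold change. Of genes with an average log2 CPM over 3, 37.5% were positive. With edgeR, 0 of the 15 general capillary markers were called over all genes. DESeq2 called 5 of them, and limma-voom and the robust edgeR fit 1 each. Over all genes those fits called 985 of 15654, 21 of 18874 and 59 of 18874. The median of the 15 markers was -0.15. At an unadjusted p under 0.05 there were 8 lower and 0 higher, against 10.3% and 7.35% of all genes. For 6, every nANGPTL4 AAV library lay below every control AAV library, against 6.99% of all genes. Those with the smallest p were Cd93, a receptor for IGFBP7 (log2 fold change -0.29, edgeR adjusted p = 0.0622), Tmem100, a membrane protein downstream of BMP signalling (-0.22, edgeR adjusted p = 0.0876), and the phosphatase Ptprb (-0.18, edgeR adjusted p = 0.124). Without library 3 the list's median was -0.13, with 13 of 15 negative. The difference between the lists was not tested. The pan-endothelial markers had 10 of 12 negative, but 6 of 12 with upper quartile scaling or library size only. The general capillary markers kept 13 of 15 negative with both scalings.

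In each library the mean log2 deviation of the 9 aerocyte genes was set against that of the general capillary markers. Aerocyte minus general capillary was -0.01, 0.02, 0.37 and -0.01 in nANGPTL4 AAV libraries 1 to 4, and -0.10, -0.19, -0.08 and 0.00 in control AAV libraries 1 to 4. Library 3 of nANGPTL4 AAV was far above the others, and the other 3 lay between control AAV libraries 3 and 4 or just above library 4, so the groups overlapped.

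Signals that pass between capillary cells, a list of 12 ligands and receptors, held 0 genes called with edgeR and 1 with DESeq2. Over all genes DESeq2 called 985 of 15654. In the edgeR fit 9 of the 12 signals were negative, with a median log2 fold change of -0.07. The members with the smallest p were the VEGF receptor Flt1 (-0.15, edgeR adjusted p = 0.114), the ligand Vegfa (-0.18, edgeR adjusted p = 0.224) and the BMP receptor Bmpr2 (-0.10, edgeR adjusted p = 0.276). Kdr, the VEGF receptor on which aerocytes depend, was at 3269.8 ± 269.6 CPM in nANGPTL4 AAV and 3376 ± 288 CPM in control AAV (log2 fold change -0.05, edgeR adjusted p = 0.794). Library 3 was the highest of its group for Kdr too, at 3633 CPM against 3035 to 3313 CPM in the other 3 nANGPTL4 AAV libraries.

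Of 9 listed binding partners of the aerocyte gene products, 8 passed the filter and 0 were called with edgeR. DESeq2 called 2, and limma-voom and the robust edgeR fit 1 each. Over all genes those fits called 985 of 15654, 21 of 18874 and 59 of 18874. Of the 8 partners tested, 7 were negative, and the median log2 fold change was -0.13. The lists share genes, so their medians are not separate observations. Cd93 and Kit are also general capillary markers, and Tbx3 is also among the other aerocyte genes. The list of signals holds Kitl, Kit, Aplnr, Kdr, Nrp1, Apln and Ednrb from other lists. Besides Cd93, the smallest p belonged to the caveolar protein Cav1 (-0.18, edgeR adjusted p = 0.113) and the integrin subunit Itgb1 (-0.14, edgeR adjusted p = 0.170). The dystroglycan gene Dag1, whose product lies in the periaxin complex of Schwann cells, was at -0.13 (edgeR adjusted p = 0.187), while Drp2, the other partner in that complex, had too few counts to be tested. The 6 Schwann and nerve markers summed to 4.47 to 4.69 CPM in nANGPTL4 AAV and 4.30 to 5.03 CPM in control AAV. The part of nerve in the values of Prx was not tested.

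Car4, Chst1, Igfbp7 and Cyp4b1 had the highest level per length of their gene families, while Tbx2 stood below Tbx3 and Emp2 below Pmp22, at 200.1 against 335.5 CPM per kb. Car4 had 545 CPM per kb over all libraries, against 53.3 for Car2 and 39.6 for Car14 among 10 of 16 carbonic anhydrases that passed the filter. With edgeR 0 of the 10 were called. DESeq2, fitted without the edgeR filter on low counts, called 1 of the 16. Over all genes DESeq2 called 985 of 15654. The carbonic anhydrases with the smallest p were Car14 (log2 fold change -0.24, edgeR adjusted p = 0.113), Car8 (-0.29, edgeR adjusted p = 0.199) and Car11 (0.48, edgeR adjusted p = 0.282). Car11 was at 0.575 and 0.408 CPM in nANGPTL4 AAV and control AAV, a very low level. The family's median log2 fold change was -0.05, and ran from -0.13 without control AAV library 3 to 0.05 without control AAV library 2. Of 17 T-box genes 10 passed and 0 were called with edgeR, against 1 of all 17 with DESeq2. The T-box genes of smallest p were Tbx10 (0.83, edgeR adjusted p = 0.0922), Mga (-0.18, edgeR adjusted p = 0.135) and Tbx3. Tbx10 was at 0.456 to 0.632 CPM in nANGPTL4 AAV and 0.239 to 0.363 CPM in control AAV, a very low level. The family's median was 0.28, but 0.03 without nANGPTL4 AAV library 2, 0.18 without nANGPTL4 AAV library 4 and 0.16 without control AAV library 4. Each of these fits held 11 T-box genes and not 10, so the medians are over different sets of genes. The T-box median was 0.39 without control AAV library 3, over 10 genes, and 0.15 with the stricter filter, which kept 7.

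Of 15 carbohydrate sulfotransferases 11 passed and 0 were called with edgeR. DESeq2, fitted without the edgeR filter, called 1 of the 14 counted. Over all genes DESeq2 called 985 of 15654. The median log2 fold change of the 11 was 0.03, and ran from 0.0020 without control AAV library 3 to 0.10 without nANGPTL4 AAV library 3. Chst15, which sulfates chondroitin, had the smallest p (log2 fold change -0.24, edgeR adjusted p = 0.111). Chst3 (0.74, edgeR adjusted p = 0.217) and Chst5 (1.07, edgeR adjusted p = 0.237) followed at very low levels of 1.13 and 0.680 CPM for Chst3 and 0.170 and 0.0810 CPM for Chst5 in nANGPTL4 AAV and control AAV. Emp2 has the relatives Emp1, Emp3 and Pmp22, of which none was called with edgeR or DESeq2. The median of this family was 0.02, and ran from -0.0014 without nANGPTL4 AAV library 3 to 0.04 without nANGPTL4 AAV library 2, with Emp1 at -0.13 (edgeR adjusted p = 0.432) and Pmp22 at 0.07 (edgeR adjusted p = 0.590). Of 8 IGF binding proteins 6 passed and 0 were called with edgeR, against 1 of all 8 with DESeq2. The median of the 6 was 0.02, and ran from 0.0084 without control AAV library 4 to 0.08 without nANGPTL4 AAV library 1. Igfbp5 had the smallest p (-0.49, edgeR adjusted p = 0.116), then Igfbp2 (0.53, edgeR adjusted p = 0.223), and Igfbp7 exceeded the next, Igfbp4, by 1370.2 to 153 CPM per kb over all libraries. Of 15 CYP4 genes 8 passed and 0 were called with edgeR or DESeq2. Their median was 0.12, with Cyp4f13 (0.13, edgeR adjusted p = 0.246), Cyp4a31 (0.75, edgeR adjusted p = 0.354) and Cyp4f18 (0.35, edgeR adjusted p = 0.546) as those of smallest p. Cyp4a31 was at 0.238 to 0.623 CPM in nANGPTL4 AAV and 0.0973 to 0.395 CPM in control AAV. Cyp4f18 was at 0.227 to 0.454 CPM in nANGPTL4 AAV and 0.230 to 0.285 CPM in control AAV, both very low levels. With the stricter filter, which kept 4 CYP4 genes, the median was 0.04.

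Some of the 9 are also expressed outside the endothelium, Emp2 in alveolar type 1 cells and Cyp4b1 in airway club cells. Of 11 alveolar type 1 markers 10 were positive and 0 called with edgeR or DESeq2. Their median was 0.38 on the log2 scale, but 0.25 without control AAV library 1 and 0.68 without control AAV library 4, with sums of 1391 to 1561 CPM in nANGPTL4 AAV and 1388 to 1581 CPM in control AAV. Most of that sum was Clic5, at 1088 and 1147 CPM in nANGPTL4 AAV and control AAV. Ager, the defining type 1 gene, was at 57.8 ± 6.06 CPM in nANGPTL4 AAV and 43.2 ± 16.6 CPM in control AAV (SD, n = 4 each, edgeR adjusted p = 0.339). The type 1 genes with the smallest p were Cldn18 (0.60, edgeR adjusted p = 0.192), Igfbp2 and Akap5 (0.56, edgeR adjusted p = 0.244). Of 9 airway markers 8 passed, with a median of 0.31, and the sums of the 9 were 268 to 311 CPM in nANGPTL4 AAV and 239 to 269.7 CPM in control AAV, mostly from Tppp3. The club cell gene Scgb3a2 was called higher, at 0.804 ± 0.106 CPM in nANGPTL4 AAV and 0.328 ± 0.0513 CPM in control AAV (SD, n = 4 each, edgeR adjusted p = 0.0369). When any 1 library was left out, the airway list held a called gene only without control AAV library 3. It also held none with upper quartile scaling, library size only or the replicate block. The stricter filter, with a limit of 1 CPM, kept 5 airway markers and left out Scgb3a2, so that fit could not call it. The airway list held 3 called genes with DESeq2, which called 985 of 15654 genes over all. Scgb1a1, the defining club cell gene, was at 31.7 ± 7.06 and 13.4 ± 7.74 CPM in nANGPTL4 AAV and control AAV (edgeR adjusted p = 0.0961). The myeloid, lymphocyte, erythroid and platelet lists were low in level. The 11 myeloid markers, of which 6 passed the filter, summed to 16.4 to 18.7 CPM in nANGPTL4 AAV and 13.9 to 15.8 CPM in control AAV. The 4 lymphocyte markers tested, all positive, belonged to a list that summed to 2.50 to 5.42 CPM in nANGPTL4 AAV and 1.81 to 2.35 CPM in control AAV. Of 11 erythroid and platelet markers the 9 tested were all positive, and the 11 had sums of 74.9 to 87.5 CPM in nANGPTL4 AAV and 45.9 to 89.1 CPM in control AAV. Of all genes tested 52.2% were positive. A gene near the limit of the filter can pass on the libraries of 1 group alone. The directions of the lymphocyte, erythroid and platelet markers tested may thus be partly set by the filter. The part of these cells in the values of the aerocyte genes, Emp2 and Cyp4b1 included, was not tested.

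Other endothelial types had mostly negative values, in a fit where 37.5% of genes with an average log2 CPM over 3 were positive. Of 12 arterial markers 11 were negative, with a median of -0.23, and 1 was called lower, the gap junction gene Gja5 (log2 fold change -0.60, edgeR adjusted p = 0.0317). When any 1 library was left out, the arterial list held a called gene only without control AAV library 2. It held none with the stricter filter and 3 with DESeq2, which called 985 of 15654 genes over all. All 10 venous markers were negative, with a median of -0.25 and 0 called with edgeR, against 4 with DESeq2. Of 7 lymphatic markers 6 were negative, with a median of -0.18 and 0 called with edgeR, against 1 with DESeq2. That median was -0.02 without nANGPTL4 AAV library 2 and -0.07 without control AAV library 2.

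The genes lie on 7 chromosomes of mm10 and all code for protein. Car4 lies at 84957786 to 84966044 on the plus strand of chromosome 11, and Tbx2 at 85832551 to 85841948 on the same strand and chromosome. Fibin, a gene with a single exon, lies at 110360917 to 110363183 on the minus strand of chromosome 2, and Chst1 at 92599707 to 92615250 on its plus strand. Kitl lies at 100015630 to 100100416 on the plus strand of chromosome 10, and Prx at 27499324 to 27520214 on the plus strand of chromosome 7. On minus strands lie Emp2 at 10281749 to 10313968 of chromosome 16, Igfbp7 at 77349240 to 77408041 of chromosome 5 and Cyp4b1 at 115624725 to 115647723 of chromosome 4. Each count covers a whole gene, exons and isoforms together.

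Stretches of 31 bases recurred in other genes for 6 of the 9, over 3.41% of Prx, 4.57% of Igfbp7, 11.7% of Cyp4b1, 2.28% of Emp2, 0.419% of Chst1 and 0.056% of Tbx2, so reads of these genes could be shared. The antisense gene Gm15541 covers 5.38% of the exonic bases of Prx, but had 33.2 and 24.3 CPM in nANGPTL4 AAV and control AAV against 1870 and 1853 CPM for Prx. Polr2b covers 7.03% of the exonic bases of Igfbp7 on the other strand and was at 83.0 and 85.7 CPM in nANGPTL4 AAV and control AAV. The gene that shares most with Cyp4b1 is its pseudogene Cyp4b1-ps2, which was at 0.240 and 0.162 CPM in nANGPTL4 AAV and control AAV. The strand setting of the counting is not given in the sources used here, so the values of Prx, Igfbp7 and Cyp4b1 are less certain.

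Of the 9240 genes, Car4 left out, whose log2 CPM (prior count 2) averaged over 3 across the libraries, the pattern over the 8 libraries most like that of Car4 was found in Gnao1, a G protein subunit, Pitpnm2, a phosphatidylinositol transfer protein, and Mapre3, a microtubule end binding protein. Likeness was the root mean square difference of standardized log2 CPM, which was 0.261, 0.266 and 0.327. Each had its highest value in nANGPTL4 AAV library 3, at 113, 139 and 22.7 CPM. Of the other aerocyte genes Chst1 was nearest to Car4, at 0.442 and rank 21, and Kitl farthest, at 1.15 and rank 2473. Car4 likewise had its highest value in that library.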

How the data were processed

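RNA of sorted lung endothelial cells was measured in 8 libraries. The authors deposited raw counts for 31610 Ensembl genes. Per the submitters' processing notes the genome was mm10, and the aligner, counter, strand setting and annotation are not given in the sources used here. Per the labels' protocols, a low-input cDNA kit was used. Identifiers without version matched a symbol for 31491 genes, and lengths and coordinates came from GENCODE M21 on the same build. Replicates differed by more than counting error (chi-square over its degrees of freedom, 21.3 to 60.2).

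Counts were fitted with edgeR 4.0.16 in R 4.3.3: filterByExpr with a minimum count of 10, TMM scaling, a quasi-likelihood F test with the group as the only term, and Benjamini-Hochberg adjustment over 18874 genes, called under 0.05. Log2 CPM used a prior count of 2. Intervals are 95% intervals from the same fit. Alternatives were other scalings and filters, DESeq2 1.42.0, limma 3.58.1 (voom), a robust fit, a replicate block and leaving out each library.

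The 9 aerocyte genes were fixed by symbol from prior knowledge of the cell type. Earlier results of these data were known when these genes, the lists and the rule for naming genes were chosen. All 9 aerocyte genes were named, with up to 3 genes of smallest p from other lists used and the 3 genes most like Car4. Genes named for their level, binding or overlap (Kit, Kdr, Ednrb, Apln, Dag1, Drp2, Car2, Igfbp4, Emp3, Clic5, Tppp3, Ager, Scgb1a1, Pecam1, Cdh5) were chosen after values were seen.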

Additional observations from a re-analysis of the deposited data

Results flagged for a closer look

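Car4 in nANGPTL4 AAV library 3 was far from the other libraries of its group, at 1275 CPM against 1048 to 1061 CPM. Its gap to the nearest value was 0.945 of the group's range, above Dixon's 95% critical value for 4 samples. It was the only one of 18 gene and group combinations past that value, and chance flags about 1 in 20.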

How the results depend on the processing

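No aerocyte gene was called in any of 18 alternatives to the test as reported. The smallest adjusted p of any of the 9 was 0.149, for Kitl without nANGPTL4 AAV library 3. The median log2 fold change of the 9 genes, 0.10 as reported, ran from 0.0028 to 0.133 when 1 library was left out, the lowest being without nANGPTL4 AAV library 3, and was 0.14 with upper quartile scaling and library size only. Tbx2 ran from -0.0805 to 0.235 and Fibin from -0.0507 to 0.117 when 1 library was left out, both negative only without nANGPTL4 AAV library 3. Cyp4b1, near 0 throughout, was 0.0294 with upper quartile scaling, 0.0331 with library size only, 0.0140 with the stricter filter, and from -0.0616 to 0.0316 when 1 library was left out. Car4, Prx, Kitl, Chst1, Emp2 and Igfbp7 kept their direction in all 17 alternative fits. Both of those scalings shift the median of all genes tested to 0.05, and that of the general capillary markers to -0.11.

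The count over all genes, 26, was 4 with upper quartile scaling, 4 with library size only, 1 with the stricter filter, 985 with DESeq2, 59 with the robust fit and 471 at an adjusted p under 0.1. It was 1 or 2 when any 1 library was left out. The replicate block gave 6. Same-numbered libraries of the 2 groups had correlated deviations of 0.16, 0.14, -0.25 and -0.38, and 2 of 8 libraries correlated best with their own number, so the numbers were not taken as pairs. The block changed no call among the 9. With 4 libraries a group, the SE of the 9 ranged from 0.05 to 0.16 on the log2 scale.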

Other observations

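Chst2, which sulfates N-acetylglucosamine, was at 123 CPM in nANGPTL4 AAV library 3 against 50.7 to 76.4 CPM in the other 3 nANGPTL4 AAV libraries and 59.6 to 82.8 CPM in control AAV. That is 2.08 times the mean of the other 3 of its group, a larger ratio than that of any of the 9 aerocyte genes. It was chosen after its values were seen.

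The ratio of Igfbp7 to Cd93 in CPM was 1.16 to 1.44 in nANGPTL4 AAV and 0.924 to 0.986 in control AAV, so the groups did not overlap. Cd93 alone did not overlap either, at 1295 to 1455 CPM in nANGPTL4 AAV and 1646 to 1704 CPM in control AAV, while Igfbp7 alone did. The pair was set up with the values known and was not tested. The ratio of Apln to its receptor Aplnr was 0.415 ± 0.0567 in nANGPTL4 AAV and 0.336 ± 0.0513 in control AAV (SD, n = 4 each), with overlapping ranges of 0.335 to 0.456 and 0.275 to 0.392. The ratio of Tbx2 to Tbx3 was 0.492 ± 0.0992 in nANGPTL4 AAV and 0.408 ± 0.0316 in control AAV, with ranges of 0.408 to 0.626 and 0.363 to 0.438 that overlapped too.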
